A study of Mus musculus with 8 samples.

Results

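The serotonin system of the mouse forebrain is represented here by 10 genes, namely the receptor genes Htr1a, Htr1b, Htr1d, Htr2a, Htr2c, Htr3a, Htr4, Htr5a and Htr7 and the serotonin transporter gene Slc6a4. A probe belonged to the set when the gene name given for it by the array equaled one of these symbols. This rule found 17 of the 56605 probes compared, and it used no measured value. The 10 genes themselves were chosen with earlier results of these data known. The probes were read in tissue holding the cerebral cortex and the striatum of male mice of 2 inbred strains, BTBRTF/ArtRbrc (BTBR/R, 4 mice), a subline of the BTBR mouse that is studied as a model of autism, and C57BL/6J (B6, 4 mice). The labels give no experimental treatment, the mice were anesthetized with pentobarbital before dissection, and every mouse had its own array. The 4 B6 mice and 3 of the BTBR/R mice were 4 months old, and BTBR/R replicate 1 was 6 months old. Cortex and striatum were not separated, so a difference may lie in either region, and in such bulk tissue fewer cells of a type and less RNA per cell cannot be told apart.

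Serotonin is made by neurons of the raphe nuclei in the brainstem, whose axons reach the whole forebrain. The receptors sit mostly on the target cells and differ in what they do there. Receptors of the Htr1 and Htr5 groups act through the inhibitory G proteins Gi and Go, those of the Htr2 group act through Gq and phospholipase C, and Htr4, Htr6 and Htr7 act through Gs, which stimulates adenylyl cyclase. Htr3a encodes a subunit of an ion channel opened by serotonin, and in the cortex it marks a class of inhibitory interneurons. The transporter Slc6a4, the target of the common antidepressants, takes released serotonin back into the axon. Its mRNA is made in the cell bodies of the raphe, which were not part of the dissected tissue.

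Values are scaled signals, that is, the log2 of the background-subtracted signal of a probe minus the 75th percentile of its array. A value of -2 therefore means a signal 4 times below that percentile. A difference is BTBR/R minus B6 on the same log2 scale, fitted with limma, and its adjusted p is Benjamini-Hochberg adjusted over all 56605 probes. Detection on an array means that the scanner software marked the spot as well above background. The lowest detected signal lay between -5.28 and -4.98 on the B6 arrays and between -3.97 and -3.55 on the BTBR/R arrays, and 64.5% to 66.8% of probes were detected in B6 mice against 53.5% to 57.2% in BTBR/R mice. All arrays lay on 1 slide, with B6 in one column of the slide and BTBR/R in the other, so the strain and the position on the slide cannot be told apart. No probe was saturated.

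Transcripts of 6 receptors, Htr1b, Htr2a, Htr2c, Htr3a, Htr4 and Htr7, were detected in all 8 mice, by 7 probes in all. All 7 probes had a higher mean in BTBR/R mice, and 5 of them passed an adjusted p of 0.05, 1 each for Htr1b, Htr2a, Htr3a, Htr4 and Htr7. Of all probes detected on all 8 arrays, 26.9% passed this threshold, and 13% passed it in the higher direction. The count of 5 depended on the setting: it was 2 with quantile normalization, scaling by the array median or a floor at the highest detection limit, 3 with the methods' t-test, 4 without BTBR/R replicate 2, and 1 to 3 without any other single mouse, with 1 left without B6 replicate 3 or BTBR/R replicate 3. The changes of these 5 were small, between 1.10-fold and 1.56-fold, and 0 of the 7 were called at 2-fold with limma, a count that was also 0 at an unadjusted p under 0.05 and 0 with the methods' t-test. At 2-fold, 2.2% of all probes detected on all 8 arrays were called. The median difference of the 7 probes was 0.34, against 0.00 for all probes detected on all 8 arrays. The values of the 2 strains did not overlap for 4 of the 7, while 32.6% of all such probes did not overlap, 16.3% with BTBR/R higher. The remaining 10 probes of the set were detected on some arrays (6 probes) or on none (4 probes).

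**Figure D1:**
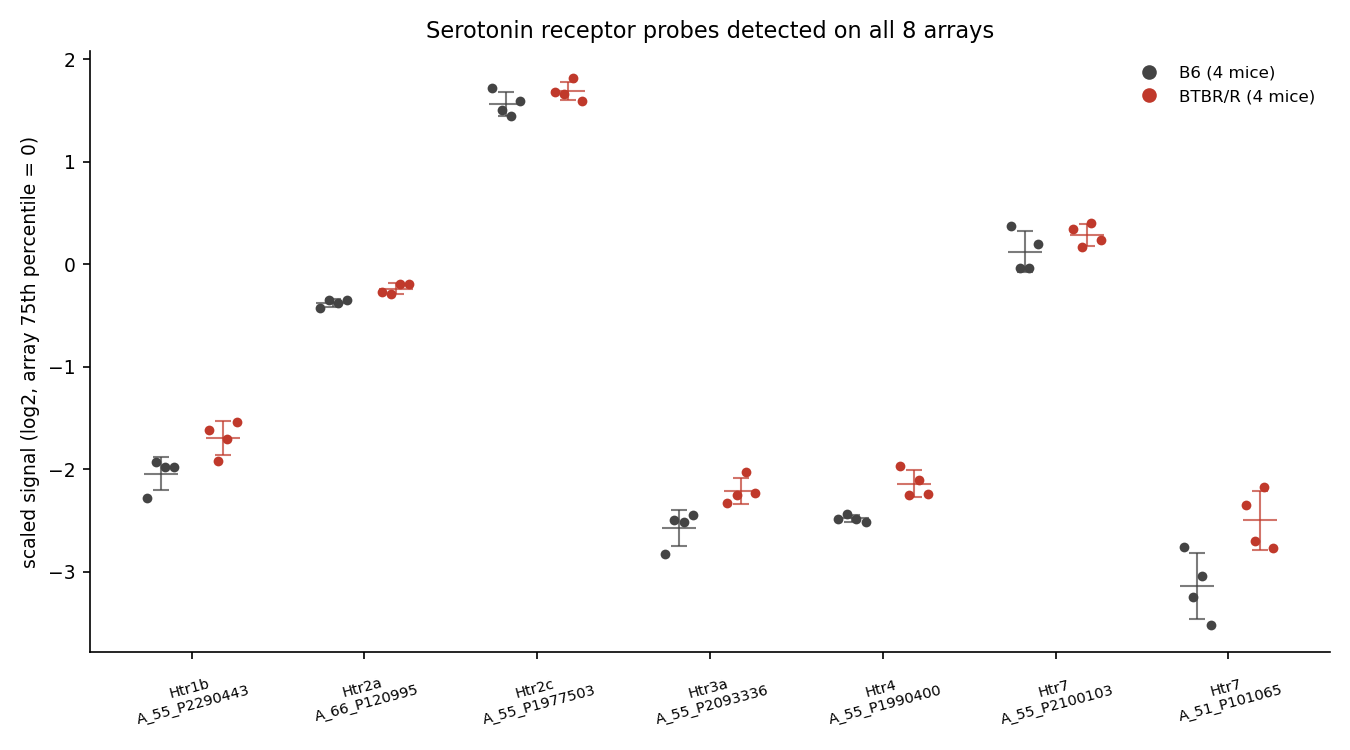
Scaled signal (log2, vertical axis) of the 7 serotonin receptor probes detected on all 8 arrays, with 1 point per mouse and the mean ± SD (n = 4) of each strain. The BTBR/R points lie above all B6 points for Htr1b, Htr2a, Htr3a and Htr4, while the strains overlap for Htr2c and both Htr7 probes.

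Among the receptors coupled to Gi, Htr1b had 1 probe that was higher in BTBR/R mice. The Htr1b receptor sits largely on axon terminals, where it lowers the release of serotonin and other transmitters. The probe that detected it in every mouse, A_55_P2290443, was annotated at chr9:81522512-81522571 on the minus strand (mm9), and a second probe, A_52_P103998, lay 2503 bases from it. The first was annotated to an Ensembl transcript and the second to the RefSeq mRNA of the gene. The first 30 of the 60 bases of each are shown in lower case, since the probes gave different readings.
A_55_P2290443: tggggcatcgtgtatccaatagaagcttgc
A_52_P103998: catcatctacaccatgtccaatgaggactt
The scaled signal of the first probe was -2.28, -1.93, -1.98 and -1.98 in the B6 mice and -1.61, -1.92, -1.71 and -1.54 in the BTBR/R mice. The lowest BTBR/R value, that of replicate 2, lay only just above the highest B6 value. The means were -2.04 ± 0.16 in B6 and -1.69 ± 0.16 in BTBR/R mice (SD, n = 4 each). The difference of 0.35 (SE 0.11) corresponded to 1.27-fold, with a limma adjusted p of 0.0400. This call was close to the threshold: it held without BTBR/R replicate 2 (adjusted p = 0.0184) and was lost when any other mouse was left out (adjusted p = 0.0529 to 0.0940), with differences from 0.27 to 0.42. It was also lost with quantile normalization (adjusted p = 0.0736), scaling by the array median (0.0668), the methods' t-test (0.0568) and a floor at the highest detection limit of any array (0.110). The second probe was detected on 1 B6 array and no BTBR/R array, ranged from -5.94 to -4.82 over the 8 arrays and had an adjusted p of 0.638.

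The other Gi-coupled receptors were at the edge of detection. Htr1a, the autoreceptor of the raphe neurons and a receptor of cortical pyramidal cells, was read by 1 probe (A_52_P612368, chr13:106237236-106237295) that was detected on all 4 B6 arrays and 1 BTBR/R array. Its scaled signal was -4.02, -3.48, -3.84 and -3.69 in B6 mice and -4.69, -3.43, -4.73 and -3.89 in BTBR/R mice. The strains overlapped, the BTBR/R values were spread more widely, and the difference of -0.43 (95% interval -1.15 to 0.30) had a limma adjusted p of 0.315. Htr5a, a receptor of the forebrain whose role is less well known, was read by a probe (A_55_P2087345, chr5:28181550-28181609) detected on 2 B6 arrays and no BTBR/R array. Values of -5.52, -4.70, -6.03 and -4.97 in B6 and -5.89, -4.78, -5.91 and -5.86 in BTBR/R mice overlapped (difference -0.30, limma adjusted p = 0.556).

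Htr1d, like Htr1b a receptor of axon terminals, had the only probe of the set that passed the adjusted p in the lower direction (A_55_P2019428, chr4:135999620-135999679). It was detected on all 4 B6 arrays and on no BTBR/R array. The scaled signal was -3.73, -4.37, -4.80 and -4.09 in B6 mice and -4.88, -5.16, -4.93 and -5.51 in BTBR/R mice. Every BTBR/R value was below every B6 value, and the limma difference was -0.87 (SE 0.24, adjusted p = 0.0255). The B6 mean of -4.25 lay below the lowest signal that could be detected on the BTBR/R arrays, so no fold is given. The call was lost without B6 replicate 4 (limma adjusted p = 0.0631) and without BTBR/R replicate 2 (0.0580) or 4 (0.0602), and also with normexp correction (-0.24, adjusted p = 0.0819) and quantile normalization (0.0582). With every signal under the highest detection limit of any array (-3.55) set to that limit, the difference was 0.00.

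Htr2a, a Gq-coupled receptor of cortical pyramidal neurons and the main target of serotonergic hallucinogens, had the tightest values of the set in B6 mice after Htr4. Its probe (A_66_P120995, chr14:75106454-75106513) starts with agaaaccgggctgccatgttgttgatgggt. The scaled signal was -0.43, -0.35, -0.38 and -0.35 in B6 mice and -0.27, -0.29, -0.19 and -0.19 in BTBR/R mice. The 2 strains did not overlap, although the means of -0.38 ± 0.04 and -0.24 ± 0.05 (SD, n = 4 each) were only 0.14 apart (SE 0.05). The change was 1.10-fold with a limma adjusted p of 0.0493. The adjusted p was 0.0475 without BTBR/R replicate 2 and between 0.0635 and 0.116 without any other mouse. Scaling by the array median in place of the 75th percentile gave a difference of 0.11 and an adjusted p of 0.196. Normexp correction gave 0.24 and an adjusted p of 0.00324, so the size of the difference depended on the processing.

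Htr2c, the other Gq-coupled receptor, is transcribed in striatal and cortical neurons and very strongly in the choroid plexus, the tissue that makes cerebrospinal fluid. The probe detected in every mouse (A_55_P1977503, chrX:143631655-143631714, first bases cgtgcaacagactgccttatattatttcct) gave 1.72, 1.50, 1.45 and 1.59 in B6 mice and 1.68, 1.66, 1.81 and 1.60 in BTBR/R mice. The strains overlapped. The difference was 0.13 with a 95% interval of -0.06 to 0.31 and a limma adjusted p of 0.240, so a difference beyond the spread between mice was not shown, and a rise of up to 0.31 lies within the interval. Choroid plexus marker genes such as Ttr, of which 9 of 10 were detected on all 8 arrays and 0 passed the limma adjusted p (0 also at an unadjusted p under 0.05 and with the methods' t-test), varied widely from mouse to mouse. Their summed level, relative to the 75th percentile on a linear scale, ranged from 2.97 to 42.9 in B6 and from 6.71 to 27.1 in BTBR/R mice. B6 replicate 1, at 42.9, had the highest Htr2c value of its strain, but B6 replicate 4, at 2.97, had the next highest, and BTBR/R replicate 1, the lowest of its strain at 6.71, had a higher Htr2c value than BTBR/R replicates 2 and 4. The part of the choroid plexus in the Htr2c signal was not tested. A second Htr2c probe (A_52_P164255, chrX:143511858-143511917) was detected on no array.

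Htr3a was higher in BTBR/R mice by one probe, and its other probe did not pass the test. The 2 probes lay 1235 bases apart on chromosome 9, at chr9:48707773-48707832 and chr9:48709008-48709067, both on the minus strand.
A_55_P2093336: ctggtcactctctggtccatttggcattat
A_66_P131023: caagatcacactccttctgggatactcagt
The first, detected on all 8 arrays, gave -2.83, -2.50, -2.51 and -2.45 in B6 mice and -2.33, -2.25, -2.03 and -2.23 in BTBR/R mice. All BTBR/R values lay above all B6 values, and B6 replicate 1 was the lowest of the 8. The difference of 0.36 (SE 0.10) was 1.28-fold with a limma adjusted p of 0.0291. The call was lost with normexp correction, where the difference was 0.15 (adjusted p = 0.0902), and with quantile normalization (0.0658), scaling by the array median (0.0518) and the floor at the highest detection limit (0.0826). It passed the threshold when any of 4 mice was left out and missed it without B6 replicate 3 (adjusted p = 0.0520) or without BTBR/R replicate 2 (0.0531), 3 (0.0658) or 4 (0.0576). The second probe was detected on 3 B6 and 2 BTBR/R arrays and gave -5.49, -4.53, -4.20 and -4.00 in B6 and -3.50, -1.98, -3.84 and -3.78 in BTBR/R mice. The strains did not overlap here either, but BTBR/R replicate 2, at -1.98, stood far above the other BTBR/R mice, and the limma adjusted p was 0.0815.

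The 6 marker genes of interneuron classes that carry Htr3a, or lie close to them, were detected in every mouse and did not move one way. Npas1 (0.72) and Ndnf (0.55, a marker of neurogliaform cells) were higher in BTBR/R mice, Lamp5 (-0.30) and Vip (-0.23) were lower, with limma adjusted p values of 2.8e-05, 0.0115, 0.00699 and 0.0463, and Cck and Reln did not pass. Of all probes detected on all 8 arrays, 13% were higher and 13.9% lower at this threshold. Their summed level overlapped, at 147 to 162 in B6 and 143 to 168 in BTBR/R mice, but Cck made up 91.0% to 92.0% of it. Without Cck the sums were 12.3 to 13.9 and 12.8 to 14.1. Whether the number of such interneurons differed was not tested.

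Htr4, a Gs-coupled receptor that is abundant in the striatum, had the difference that held most often over the settings tried. The scaled signal of its probe A_55_P1990400 was -2.48, -2.44, -2.48 and -2.52 in B6 mice and -1.97, -2.25, -2.10 and -2.24 in BTBR/R mice. The B6 values were within a narrow band and every BTBR/R value lay above it. The means were -2.48 ± 0.03 and -2.14 ± 0.13 (SD, n = 4 each), a difference of 0.34 (SE 0.07) or 1.27-fold, with a limma adjusted p of 0.00784. The adjusted p stayed under 0.05 in all 11 other settings (0.00500 to 0.0344) and in all 8 fits that left out 1 mouse (0.00821 to 0.0240). Marker genes of striatal projection neurons, such as Drd1, Drd2 and Penk, were detected on all 8 arrays (9 of 9), 0 passed the limma adjusted p, an unadjusted p of 0.05 or the methods' t-test, and their summed level was 195 to 209 in B6 and 184 to 212 in BTBR/R mice. A second Htr4 probe, A_55_P2745320, lay 39523 bases away and was detected on all 4 B6 and 2 BTBR/R arrays. Its values of -3.13, -3.01, -2.93 and -3.29 in B6 and -3.18, -3.38, -3.25 and -3.13 in BTBR/R mice overlapped (difference -0.14, 95% interval -0.36 to 0.07, limma adjusted p = 0.261).

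Htr7, the other Gs-coupled receptor, has known roles in thalamus, hippocampus and cortex and in circadian timing. It was read by 3 probes on the minus strand of chromosome 19, at chr19:36033339-36033398, chr19:36034764-36034823 and chr19:36038872-36038931. Their first 30 bases are given because only the middle one passed the test while being detected in every mouse.
A_55_P2100103: gtgtacaaattcctgagctgcagattcgct
A_51_P101065: aagtaatgcagaacagggggaaacaacgaa
A_55_P2177309: gaatttaccttggggtaacggagtgaatac
The brightest, A_55_P2100103, gave 0.37, -0.04, -0.04 and 0.20 in B6 mice and 0.34, 0.17, 0.40 and 0.24 in BTBR/R mice. The strains overlapped, with a difference of 0.16, a 95% interval of -0.09 to 0.42 and a limma adjusted p of 0.280. The probe A_51_P101065, 1425 bases away, gave -2.76, -3.25, -3.04 and -3.52 in B6 and -2.35, -2.70, -2.17 and -2.77 in BTBR/R mice. B6 replicate 1, at -2.76, just reached the lowest BTBR/R value, and the other B6 mice lay below all BTBR/R mice. The difference was 0.65 (SE 0.20), 1.56-fold, with a limma adjusted p of 0.0369. The call was lost with quantile normalization (adjusted p = 0.0575), the methods' t-test (0.0603) and the floor (0.116). It missed the threshold without B6 replicate 2 (adjusted p = 0.0879), 3 (0.0640) or 4 (0.0782) and without BTBR/R replicate 1 (0.0827) or 3 (0.0840). Thalamic marker genes summed to 6.78 in B6 replicate 1 and to 4.60 in BTBR/R replicate 2, while the lowest mouse was at 2.60, and 0 of these 4 genes passed the limma adjusted p, an unadjusted p of 0.05 or the methods' t-test. B6 replicate 1 was the highest B6 mouse for both detected Htr7 probes, whereas BTBR/R replicate 2 had the lowest BTBR/R value of the brightest probe and the next to lowest of the other. The part of thalamic tissue in the Htr7 signal was not tested.

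Whether the probes of one gene differed in their strain difference was examined for the 4 receptors with more than 1 probe detected on some array, by the signal of one probe relative to the other in each mouse and a two-sided exact permutation test over mice. For Htr4 the difference between the strain differences of its probes was 0.48, and the B6 mice (0.45 to 0.77) lay below all BTBR/R mice (0.89 to 1.21). The exact p was 0.0286, the smallest that 4 against 4 mice allow, and 0.114 after adjustment over the 4 genes. For Htr7 it was 0.48 (exact p = 0.0571, adjusted 0.114), for Htr3a -0.92 (exact p = 0.143, adjusted 0.190) and for Htr1b 0.17 (exact p = 0.629). The values for Htr1b and Htr3a depended on the setting. With normexp correction the Htr1b probes differed between strains by 0.30 and -0.06, and the Htr3a probes by 0.15 and 0.66. Without B6 replicate 2 the Htr1b probes were at 0.38 and -0.03, and without BTBR/R replicate 2 the Htr3a probes were at 0.37 and 0.85. With 4 pairs, a single pair whose strains are fully apart cannot go below an adjusted p of 0.114, so these adjusted values do not settle whether the probes of Htr4 differ, and apart from the Htr7 pair each included a probe that was not detected on every array.

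The transporter Slc6a4 was not detected in any mouse. Neither of its probes (A_51_P496253, chr11:76845560-76845619, and A_55_P2718157, chr11:76835716-76835775) was marked as well above background on any array.
A_51_P496253: acataaaccacctaagagaaaacagggatg
A_55_P2718157: tttaactatatgtgtgtgagagtttggcca
The scaled signal of the first was -7.00, -6.77, -7.13 and -6.22 in B6 and -5.98, -5.58, -5.68 and -5.78 in BTBR/R mice, all below the detection limit of the array concerned. On 2 of the B6 arrays and all 4 BTBR/R arrays this value was the surrogate that the software puts in place of a signal too low to measure, and for the second probe it was the surrogate on all 8 arrays. The limma fit gave differences of 1.02 (adjusted p = 0.00535) and 1.42 (adjusted p = 2.8e-05), and both probes were therefore past 2-fold on values that contain no detected signal. Of the other genes of raphe serotonin neurons, the transcription factor gene Fev was detected on no array, Gata3 on 1 B6 array, and Tph2, the neuronal enzyme that starts serotonin synthesis, on 2 B6 arrays and no BTBR/R array. Slc18a2, the vesicular transporter shared with dopamine neurons, was detected on all 8 arrays, with means of -1.17 in B6 and -1.13 in BTBR/R mice.

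The same pattern held for all undetected probes of the set. In all, 4 probes, both of Slc6a4, the second of Htr2c and the last of Htr7, passed both the adjusted p and 2-fold, with differences from 1.02 to 1.42, and all 4 were detected on no array. No other probe of the set was called at 2-fold. Of all 56605 probes, 22.4% were called (20.2% higher in BTBR/R mice), and of the 14874 probes detected on no array 67.7% were called, every one of them higher in BTBR/R mice. After normexp correction of the spot intensities the differences of the 4 probes lay between -0.07 and 0.22 with adjusted p values from 0.134 to 0.801, and with the floor at the highest detection limit they were 0.00. Quantile normalization left the Htr2c probe at 0.82 (adjusted p = 0.00930) and the Slc6a4 probe A_55_P2718157 at 0.43 (adjusted p = 0.00665), and brought the other 2 to 0.02 and 0.16 (adjusted p = 0.904 and 0.392). Without the 2-fold requirement, 10 of the 17 probes passed the adjusted p, 9 higher and 1 lower in BTBR/R mice, against 39.3% of all probes (27.7% higher, 11.6% lower). These were the 5 probes detected in every mouse, the 4 undetected probes and Htr1d.

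**Figure D2:**
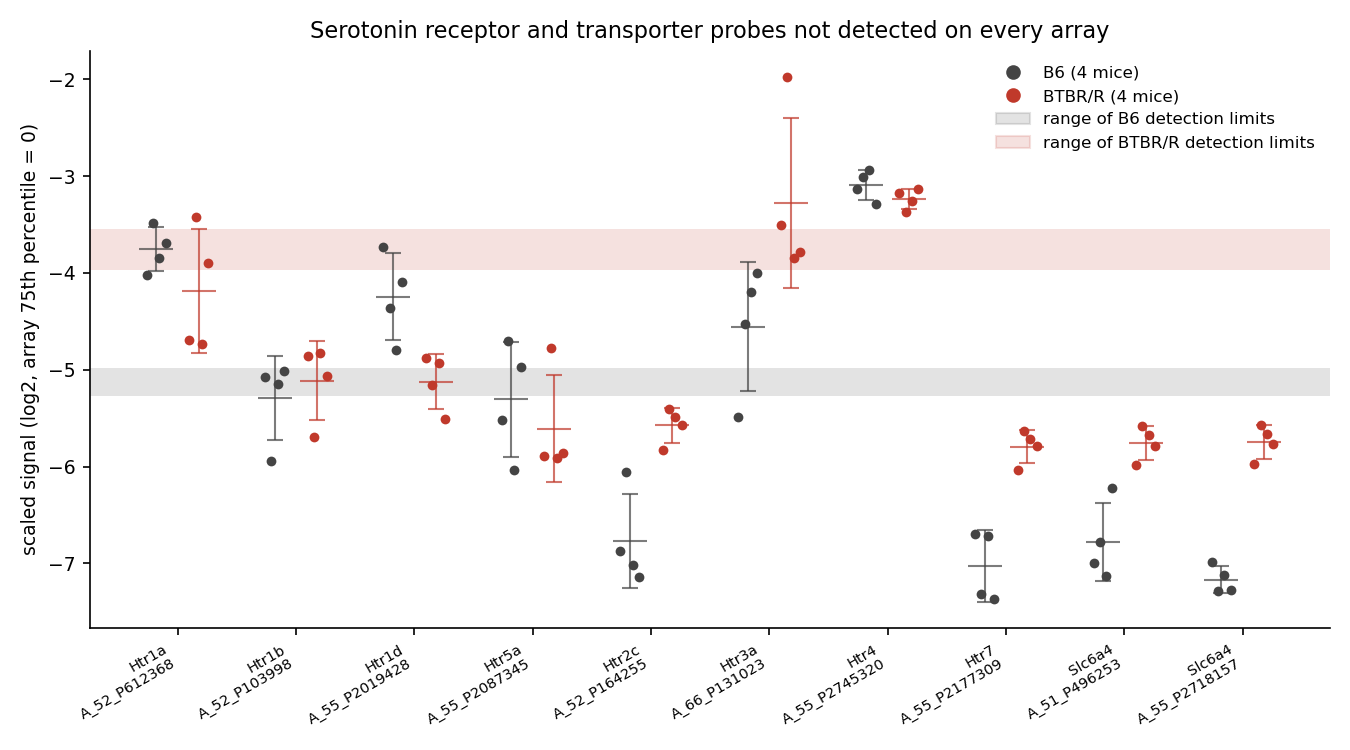
Scaled signal (log2, vertical axis) of the 10 probes that were not detected on every array, with 1 point per mouse, the mean ± SD (n = 4) of each strain, and bands for the range of the lowest detected signal on the arrays of each strain. The BTBR/R points of the undetected Htr2c, Htr7 and Slc6a4 probes lie close together, at -6.03 to -5.40, well below the BTBR/R band at -3.97 to -3.55.

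**Figure D3:**
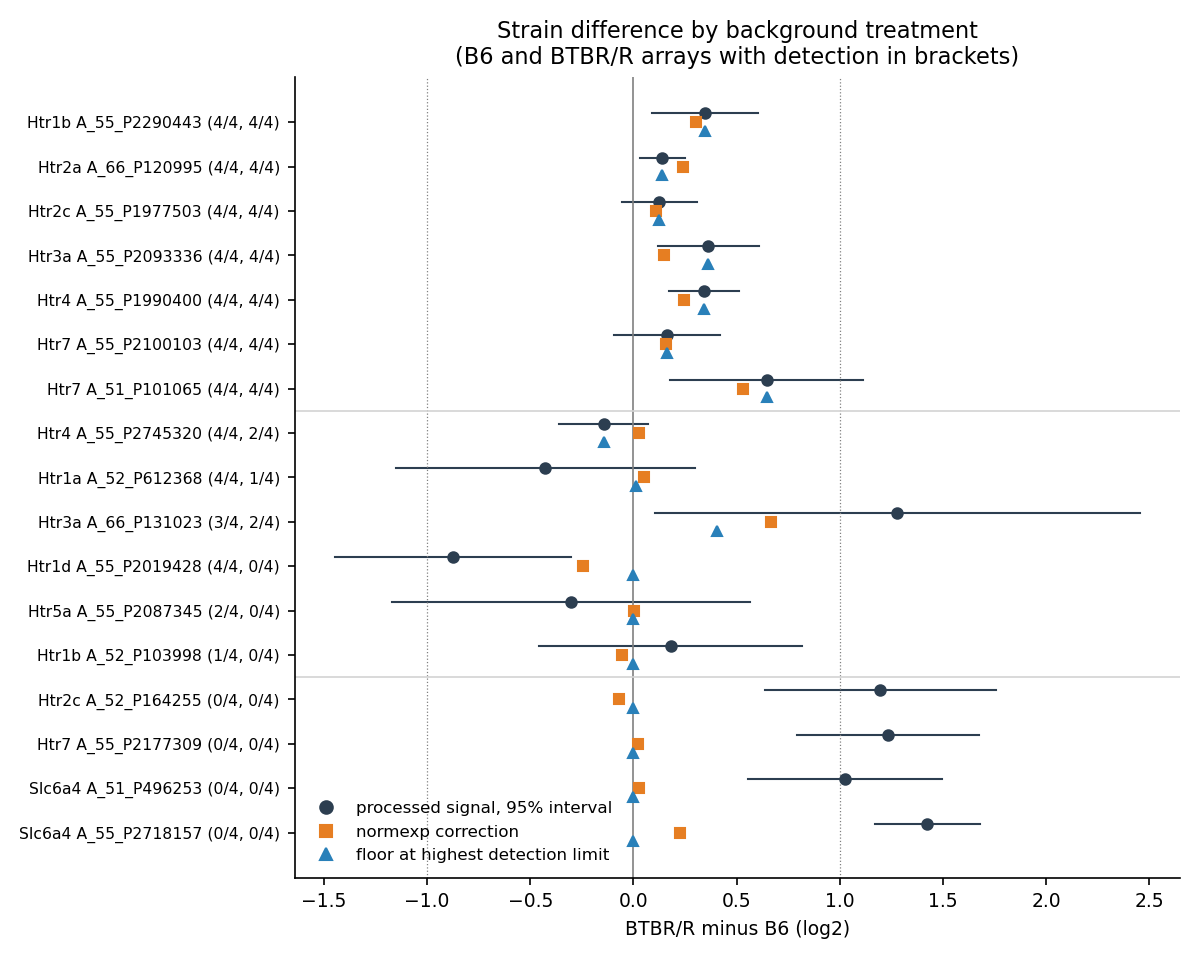
BTBR/R minus B6 difference (log2, horizontal axis) of all 17 probes, as reported with its 95% interval (circles), after normexp background correction (squares) and with a floor at the highest detection limit (triangles); dotted lines mark 2-fold and brackets give the arrays with detection in B6 and BTBR/R mice. The 7 probes detected on all 8 arrays stay above 0 under all 3 treatments, whereas the 4 undetected probes move from 1.02 to 1.42 to values between -0.07 and 0.22.

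**Figure D4:**
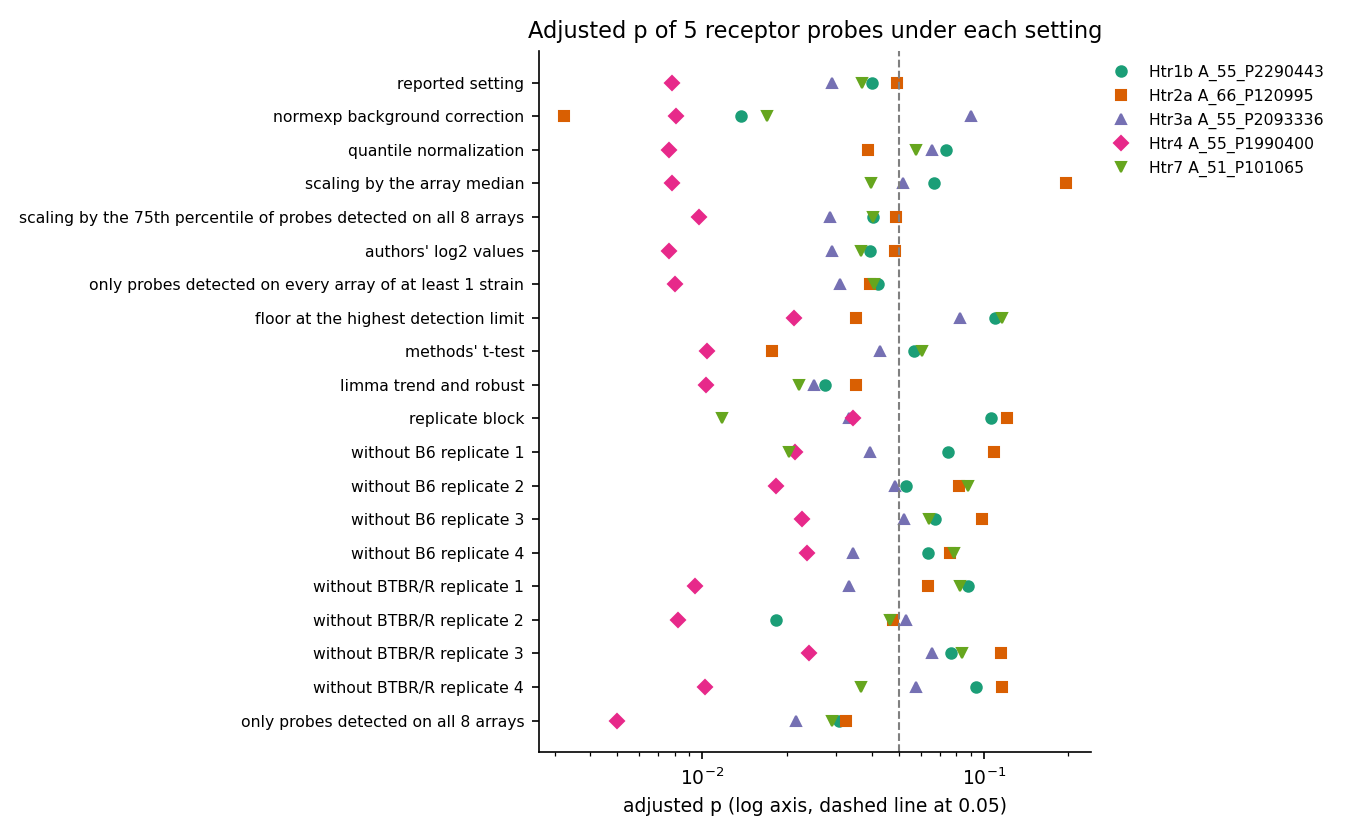
Adjusted p (horizontal log axis, dashed line at 0.05) of the 5 receptor probes that passed the threshold and were detected on all 8 arrays, under the reported setting, each alternative and each fit without 1 mouse. Htr4 lies left of the line in every row, and the probes of Htr1b, Htr2a, Htr3a and Htr7 cross it.

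The 5 remaining serotonin receptor genes were mostly too dim to compare. Htr1f, another Gi-coupled receptor, was the only one detected on all 8 arrays, and its difference was 0.05 (95% interval -0.23 to 0.32, limma adjusted p = 0.784). Htr6, a Gs-coupled receptor of striatal neurons, was detected on all 4 B6 arrays and 1 BTBR/R array by its brightest probe (0.03, adjusted p = 0.943), and Htr5b on 4 and 2 (0.33, adjusted p = 0.262). Htr2b was detected on 3 B6 arrays and no BTBR/R array, with a limma difference of -0.54 (adjusted p = 0.0412) at a B6 mean of -4.96, below the BTBR/R detection limits. Htr3b was detected on no array.

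Genes for the making, storing, uptake and breakdown of serotonin were read by 26 probes of 14 genes, of which 14 probes of 11 genes were detected on all 8 arrays. At an adjusted p under 0.05, 1 of these 14 was higher and 4 were lower in BTBR/R mice, where 13% and 13.9% of all probes detected on all 8 arrays were, and 0 were called at 2-fold by limma, at an unadjusted p under 0.05 or by the methods' t-test. The largest change was that of Maob, which encodes monoamine oxidase B, a mitochondrial enzyme of glia and serotonin neurons that breaks down amines. Its brighter probe (A_51_P302566, chrX:16286427-16286486) gave 1.35, 1.29, 1.20 and 1.13 in B6 and 0.69, 0.70, 0.65 and 0.44 in BTBR/R mice. The strains were well apart, with a difference of -0.63 (SE 0.08, 1.54-fold lower, limma adjusted p = 0.000516), and the second Maob probe was lower too (-0.47, adjusted p = 0.00838). Maoa, which encodes the monoamine oxidase that prefers serotonin, differed by -0.03 (95% interval -0.25 to 0.19, adjusted p = 0.856).

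Also lower was Slc22a3, which encodes a low-affinity organic cation transporter (-0.45, 1.37-fold, limma adjusted p = 0.0202). The other low-affinity uptake gene, Slc29a4, which encodes the plasma membrane monoamine transporter, was at 0.26 (95% interval -0.05 to 0.56, adjusted p = 0.161). Genes of the tetrahydrobiopterin pathway, which supplies the cofactor of tryptophan and tyrosine hydroxylase, went different ways. Gch1, the gene of its first enzyme, was higher by 0.49 (1.40-fold, adjusted p = 0.00632), Pts, the next enzyme, was lower (-0.23, 1.17-fold, adjusted p = 0.0251), and Spr, the last, was at -0.12 (adjusted p = 0.0618). Qdpr, which recycles the cofactor, differed by 0.01 (adjusted p = 0.958).

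Ddc, the decarboxylase that makes serotonin and dopamine, was at 0.07 (adjusted p = 0.835), Slc18a2, the vesicular monoamine transporter of the brain, at 0.04 (adjusted p = 0.769), and Aanat, which acetylates serotonin on the way to melatonin, at 0.18 (adjusted p = 0.135). Of the hydroxylases, Tph1 was detected on no array, and Tph2, detected on 2 B6 arrays, had a limma difference of -0.88 (adjusted p = 0.0109) for which no fold is given. The brightest probe of Slc18a1, the vesicular transporter of peripheral endocrine cells, was detected on all B6 and no BTBR/R arrays (-1.65, adjusted p = 0.000224). Its B6 mean of -4.24 lay below the BTBR/R detection limits, so no fold is given either. Other Slc18a1 probes went the opposite way: A_52_P212388 was detected on no B6 and 2 BTBR/R arrays (3.24, limma adjusted p = 0.0348, with surrogate values on the other 2), A_55_P2626791 on no B6 and 1 BTBR/R array (2.54, adjusted p = 0.126), and the remaining 2 on no array. The Slc18a1 probes therefore gave no common direction.

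**Figure D5:**
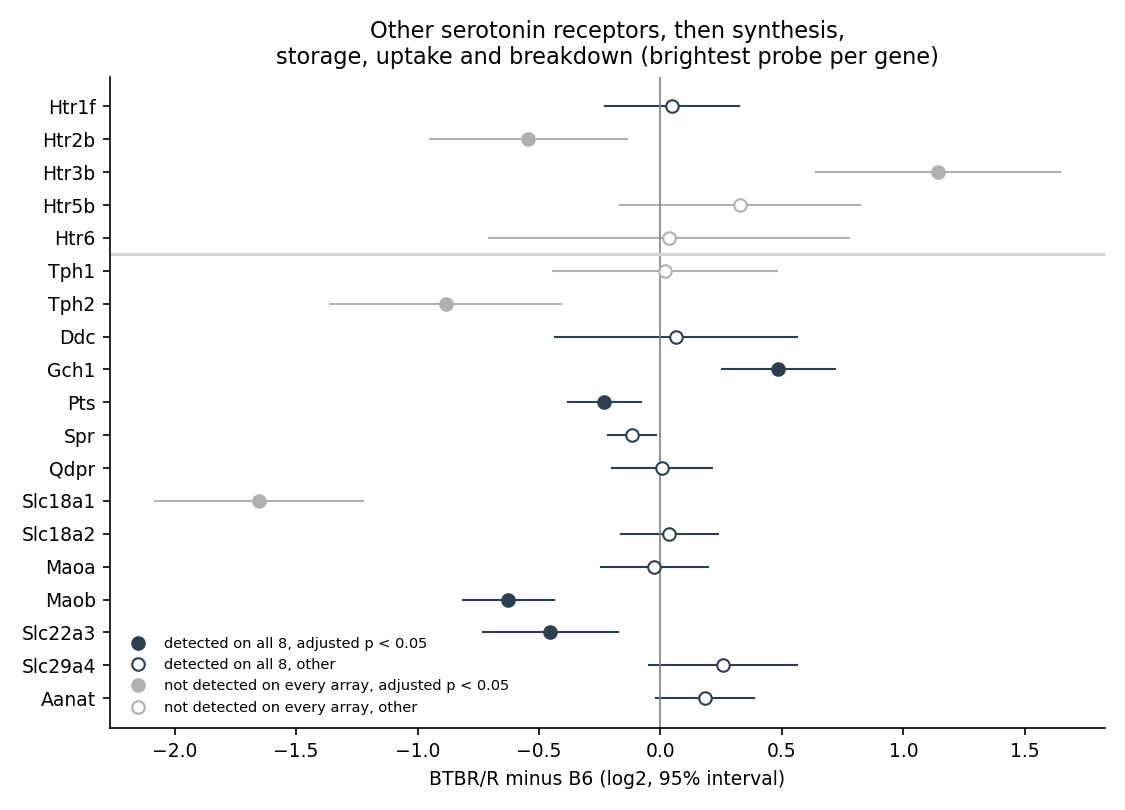
BTBR/R minus B6 difference (log2, horizontal axis) with its 95% interval for the brightest probe of 5 other serotonin receptor genes (top) and 14 genes of serotonin synthesis, storage, uptake and breakdown; dark marks are probes detected on all 8 arrays, and filled marks passed an adjusted p of 0.05. Among the filled dark marks, Gch1 lies to the right of 0 and Maob, Slc22a3 and Pts to the left, and the interval of Spr is not adjusted for the number of probes.

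Genes through which the receptors act, or that edit or anchor them, were mostly alike in their readings. Of 64 probes of 24 genes, 57 were detected on all 8 arrays. At an adjusted p under 0.05, 4 of the 57 were higher and 3 lower in BTBR/R mice, against 13% and 13.9% of all probes detected on all 8 arrays. The median difference of the 57 was -0.02. The largest change among those past the threshold was that of a probe of Adarb2. This gene encodes a brain protein of the family of RNA-editing enzymes that edit the Htr2c transcript, itself without known editing activity. The probe, A_52_P265084, was the brightest of the gene and was annotated to a non-coding RNA record. It gave 0.28, -0.22, -0.14 and 0.00 in B6 mice and 0.80, 0.92, 0.93 and 0.80 in BTBR/R mice, with no overlap (difference 0.88, SE 0.11, 1.84-fold, limma adjusted p = 0.000503). The other Adarb2 probes, annotated to the mRNA, were not detected on every array and did not pass, A_55_P2077483 at -0.20 (adjusted p = 0.717) and A_66_P128750 at 0.04 (adjusted p = 0.908). S100a10, which encodes p11, a protein that brings Htr1b and Htr4 to the cell surface, was lower by the probe A_51_P342871 (-0.36, 1.28-fold, adjusted p = 0.0119), while its probe A_66_P137316, also detected on all 8 arrays, was at -0.05 with overlapping strains (adjusted p = 0.694). Gnai3, a Gi subunit, was higher by 0.23 (adjusted p = 0.00356).

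Gnas, the Gs subunit used by Htr4 and Htr7, and Plcb1, a phospholipase C used by the Htr2 receptors, each had 1 probe among the 5 largest changes past the threshold. The Gnas probe A_55_P2939538 was higher by 0.60 (adjusted p = 0.000313), and the other 6 Gnas probes detected on all 8 arrays were between -0.19 and 0.10 with adjusted p values from 0.0564 to 0.954. The Plcb1 probe A_55_P2735200 was lower (-0.49, adjusted p = 0.000881), and the other 4 were between -0.06 and 0.02. The probes of these genes therefore did not give 1 strain difference per gene.

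Markers of tissue next to the dissected regions were compared as well. The claustrum, a thin sheet between cortex and striatum, was represented by Nr4a2, Gnb4 and Ntng2. Nr4a2 (0.28, limma adjusted p = 0.0397) and Gnb4 (0.72, adjusted p = 0.000193) were higher in BTBR/R mice, and Ntng2 was not detected on every array. The summed level of the list was 5.53 to 6.41 in B6 and 7.29 to 8.69 in BTBR/R mice, without overlap. Most of this sum was Nr4a2, with mean scaled signals of 2.34 in B6 and 2.62 in BTBR/R mice, against 0.01 and 0.73 for Gnb4. Of all probes detected on all 8 arrays, 13% were higher and 13.9% lower at this threshold, and 32.6% did not overlap. Among 7 markers of cortical projection neurons, Fezf2, a marker of deep layers, was higher by 0.32 (adjusted p = 0.0321) and Rorb, a marker of layer IV, was lower (-0.39, adjusted p = 0.0263). The summed level of these 7 was 25.3 to 29.5 in B6 and 27.0 to 30.8 in BTBR/R mice. Of 4 hippocampal markers 1 was detected on all 8 arrays, 2 others passed the adjusted p without being detected on every array, and the summed level of the list overlapped (0.641 to 1.24 and 0.772 to 1.09). The part of claustrum, cortical layers or hippocampus in the receptor differences was not tested.

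The genes whose signal varied most like each receptor from mouse to mouse, after the mean of each strain was taken away, are given as a description over 8 arrays that share their scaling. The 28547 probes detected on all 8 arrays were searched, and transcripts without a gene name, predicted genes, RIKEN clones and long intergenic RNAs were passed over. Among the rest, the nearest were Pcdha9, Trp53rkb and Thumpd3 for Htr1b, Glrx2, Ccl27a and Serp2 for Htr2a, and Agap1, Fis1 and Pds5a for Htr2c. For Htr3a they were Tmem261, Smim8 and Kin, for Htr4 Thumpd1, Ppap2b and Fam175a, and for Htr7 Whsc1l1, Chrna9 and Mef2a. Pearson's r lay between 0.973 (Htr3a with Kin) and 0.995 (Htr2a with Glrx2). No serotonin receptor appeared among the 3 nearest genes of another. With 28547 probes competing for 3 places over 8 arrays, that outcome was likely beforehand, and no conclusion is drawn from it.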

How the data were processed

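Total RNA of 8 mice (4 B6, 4 BTBR/R) was labeled with Cy3 and hybridized to SurePrint G3 Mouse Gene Expression 8x60K v2 arrays. The authors deposited spot intensity values from Agilent Feature Extraction 10.7.3.1, of which the processed signal is background-subtracted and detrended, with surrogates for the lowest signals. The deposited log2 values, made by the authors with GeneSpring GX, served as an alternative. Samples were grouped by their strain label.

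Control spots and 36 to 52 outlier spots per array were left out, spots of one probe were averaged, and the log2 processed signals, with each array's 75th percentile set to 0, were compared with limma 3.58.1 (R 4.3.3, lmFit and eBayes) over 56605 probes, with Benjamini-Hochberg adjustment. Called means an adjusted p below 0.05 together with a change of at least 2-fold. Detection followed the flag for spots well above background. The other steps used Python 3.11.15, pandas 2.3.3 and scipy 1.17.1. The number of arrays limits the precision. In a simulation with the mean and spread of each probe, 56405 of the 56605 probes were left unchanged. There the fit found 28 of 50 probes changed by 0.5 on the log2 scale and 45 of 50 changed by 1. In the real comparison 39.3% of probes passed, which makes the adjustment less strict. The simulated counts therefore do not give the power of that comparison.

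The members and lists were chosen with earlier results of these data known. Every probe of the 10 genes is accounted for. All 8 values are given for the brightest probe of each gene and for probes past the adjusted p that were detected on some array. Genes of synthesis, storage, uptake and breakdown and the other receptors are given by their brightest probe, and coupling genes by the 5 largest changes among probes past the adjusted p and detected on all 8 arrays. The 3 nearest genes by pattern have the highest correlation of deviations from the strain means. Transcripts without a gene name, predicted genes, RIKEN clones and long intergenic RNAs were passed over in that search. Choroid plexus, raphe, striatal, cortical, claustrum, interneuron, thalamic and hippocampal marker lists were summed per array.

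As alternatives, background was corrected with normexp (offset 50), arrays were quantile normalized or scaled by their median or by the 75th percentile of detected probes, the authors' log2 values were used, dim probes were left out or set to a floor at the highest detection limit, limma was run with trend and robust estimation or with the replicate number as a block, the methods' t-test was applied, and each mouse was left out in turn. The count over probes detected on all 8 arrays and the comparison between probes of a gene were added after seeing the data. Positions are mm9, as annotated in the arrays' files. No mm9 gene models were used, so exons and UTRs are not given. The strain sequences under the probes were not analysed here. RefSeq accessions were given for 14 probes of the set, and 13 were found in the mouse reference table, all under the same symbol.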

Additional observations from a re-analysis of the deposited data

Results flagged for a closer look

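For the Htr1b probe A_55_P2290443, B6 replicate 1 lay apart from the other B6 mice, at -2.28 against -1.98 to -1.93 (gap divided by range 0.852). Without this mouse the strain difference of Htr1b was 0.27 in place of 0.35, with a limma adjusted p of 0.0749. For the second Htr1b probe, A_52_P103998, B6 replicate 2 lay apart at -5.94, against -5.14 to -5.01 (0.859). That probe was detected on 1 array, and its difference was -0.03 without this mouse. These were 2 of 23 sets of 4 mice examined, and chance sets apart about 1 in 20.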

How the results depend on the processing

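Of the 17 probes, 4 were called at 2-fold, and 0 were with normexp correction, quantile normalization, either filter on dim probes or the floor at the highest detection limit (0 unadjusted as well, except 1 with quantile normalization); leaving out 1 mouse gave 3 to 4. The 10 probes past the adjusted p became 4 with normexp correction, 4 with quantile normalization, 6 and 5 with the filters for detection throughout a strain and on all 8 arrays, and 2 with the floor, and 6 to 8 without 1 mouse. Of the 7 probes detected on all 8 arrays, 5 passed as reported, 2 with quantile normalization, scaling by the array median or the floor, 3 with the methods' t-test, and 1 to 4 without 1 mouse, 1 being left without B6 replicate 3 or BTBR/R replicate 3. The 24 of 97 probes of the 3 pathway lists became 15 with the filter for detection throughout a strain and 13 with the floor, and 20 to 25 without 1 mouse. The floor and the filters remove values below detection by construction; the cause of the other moves was not tested.

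The direction turned only for probes that were not detected on every array: with normexp correction Htr1a was at 0.0495, Htr1b A_52_P103998 at -0.0560, Htr5a at 0.00237, Htr2c A_52_P164255 at -0.0704 and Htr4 A_55_P2745320 at 0.0290, with the floor Htr1a was at 0.0144, and Htr1b A_52_P103998 ranged from -0.0350 (without B6 replicate 2) to 0.376 when 1 mouse was left out. Replicate numbers did not pair the mice (correlations of deviations -0.07 to 0.16), and with the replicate block 3 of the 7 detected probes passed, Htr1b (adjusted p = 0.106) and Htr2a (0.121) missing the threshold, as did Htr1d (0.0565).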
